A study of Mus musculus with 12 samples.

Results

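A set of 10 genes that carry, export and store lipid was followed across the series: Apoe, Lcat, Pltp, Abca1, Abcg1, Nr1h3, Plin2, Fabp5, Fabp7 and Cd36. They were taken by symbol, the brightest transcript cluster standing for a gene with several, and all 10 were measured, each by 1 cluster, among 19505 named genes. The cells were white matter cells of C57BL/6 mice, captured on anti-GLAST beads to enrich astrocytes (GLAST is a glutamate transporter, the product of Slc1a3). Wild-type mice were sampled after 0, 3 or 12 weeks of a diet with 0.2% (w/w) cuprizone, which chelates copper and causes oligodendrocytes to die, and GnT-IX-deficient mice after 12 weeks of the same diet. The diet began at 8 to 12 weeks of age. The 0-week mice stand for no exposure, and no untreated group of the age reached at 12 weeks was analysed here, so diet and age cannot be told apart. No GnT-IX-deficient mice at 0 weeks were analysed here, and the kind of deletion, the sex of the mice and the number of mice behind an array are not given in the sources used here. There were 4 groups of 3 arrays apiece, labelled as biological replicates, and 12 arrays in total.

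Myelin is rich in cholesterol, and when it breaks down the surrounding glia must take up its lipids, store them or pass them on. Astrocytes secrete apolipoprotein E in particles that are loaded with cholesterol through the membrane pumps ABCA1 and ABCG1, whose genes are switched on by the liver X receptors when oxysterols build up. The enzyme LCAT esterifies the cholesterol of such particles and PLTP moves phospholipid between them. Cholesterol and fatty acids that stay in the cell are packed into lipid droplets coated by perilipin 2, and FABP5, FABP7 and CD36 carry or take up fatty acids.

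Mgat5b, which encodes GnT-IX, was at 3.70, 4.19 and 4.06 (log2) in the GnT-IX-deficient arrays whereas the 9 wild-type arrays ranged from 5.57 to 6.49. The difference between the genotypes at 12 weeks was -1.82 (limma, adjusted p = 0.00159). Slc1a3, the gene of the selection antigen, was lower by a log2 difference of -1.35 at 3 weeks (limma, adjusted p = 0.015). Of the 12 astrocyte markers, none lay below the lower quartile of an array (3.84 to 3.94) in any group, but mature oligodendrocyte markers averaged 9.14 to 9.85 by group, so the selected cells were not free of oligodendrocyte transcripts. Microglia and macrophage markers (14 measured) had a mean of 5.56 ± 0.28 (log2, SD, n = 3) without cuprizone. Their mean was 7.59 ± 1.20 (SD, n = 3) after 3 weeks, 8.45 ± 0.57 (SD, n = 3) after 12 weeks and 7.89 ± 0.52 (SD, n = 3) in GnT-IX-deficient arrays. At 3 weeks replicate 1 stood apart, with a microglial mean of 8.95 against 7.11 and 6.71. Choroid plexus markers (10 measured) stood at 8.56, 7.49 and 5.93 in the GnT-IX-deficient arrays, against a wild-type range of 4.93 to 6.31. Of the other marker lists, 3 of 11 endothelial markers rose at 12 weeks and 2 of 10 neuron markers at 3 weeks. The limma test described below called 2.11% and 1.61% of all genes as higher at these times. Of 10 mature oligodendrocyte markers 1 fell at 12 weeks, as did 0.523% of all genes. No ependymal or pericyte marker passed in any comparison. Ependymal markers (7 measured) averaged 7.23 to 8.48 in the GnT-IX-deficient arrays and 6.59 to 7.02 in wild-type arrays at 12 weeks. In bulk RNA of this kind, fewer cells of a type and less RNA per cell cannot be told apart.

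The sequences just upstream of Apoe, Lcat and Abca1 are shown because Apoe and Lcat passed the test below and Abca1 is the classic target of the liver X receptors. RefSeq promoter windows (GRCm38.p6, 250 bases before to 50 after the start) were found for 8 of the 10 genes, 11 windows in all, but not for Abcg1 and Fabp5. Each line gives the 250 bases before a start, 5′ to 3′ on the gene's strand, with capitals marking a match to the liver X receptor element, a direct repeat of AGGTCA with 4 free bases (NNNN) between the copies, on either strand and with up to 3 mismatches in its 12 fixed letters. The Apoe line, chr7:19699189-19699438 on the minus strand, is the most upstream of 3 windows of that gene. The Lcat line is chr8:105943403-105943652 and the Abca1 line chr4:53159896-53160145, both on the minus strand.
Apoe: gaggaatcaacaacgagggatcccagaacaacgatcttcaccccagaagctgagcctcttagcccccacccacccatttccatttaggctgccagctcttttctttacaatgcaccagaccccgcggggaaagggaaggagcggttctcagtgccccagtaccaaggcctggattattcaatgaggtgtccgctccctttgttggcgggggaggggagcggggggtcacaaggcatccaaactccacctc
Lcat: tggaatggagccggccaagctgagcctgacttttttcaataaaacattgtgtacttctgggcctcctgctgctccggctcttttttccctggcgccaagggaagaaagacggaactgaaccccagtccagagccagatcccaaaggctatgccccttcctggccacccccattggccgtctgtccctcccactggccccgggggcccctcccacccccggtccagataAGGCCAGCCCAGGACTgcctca
Abca1: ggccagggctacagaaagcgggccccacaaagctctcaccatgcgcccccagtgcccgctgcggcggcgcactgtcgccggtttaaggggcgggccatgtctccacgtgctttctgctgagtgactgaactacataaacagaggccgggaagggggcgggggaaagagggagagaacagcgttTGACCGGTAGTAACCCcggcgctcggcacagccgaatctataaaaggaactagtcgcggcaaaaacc
The Abca1 match lay on the opposite strand at positions -67 to -52 from the start, and the Lcat match on the gene's strand at -22 to -7. Each match had 3 mismatches, as had the only other match, in Fabp7. Such a match occurred in 21.9% of all 32851 promoter windows, and its presence in 3 of the 11 windows of these genes is given as a description. The sterol regulatory element TCACNCCAC, sought on both strands with no mismatch, occurred in 1.24% of all windows and in none of these genes'. No window of Apoe, Nr1h3, Pltp, Plin2 or Cd36 held either set of letters, which says nothing about the factors themselves.

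After 3 weeks of cuprizone Abcg1, a cholesterol exporter, rose 2.43-fold and Lcat, the cholesterol esterifying enzyme of lipoproteins, was 2.53-fold lower, while Apoe did not pass the test. After 12 weeks Apoe rose 1.66-fold against 0 weeks and was the only one of the 10 genes past the threshold. No gene of the 10 passed the threshold between 12 and 3 weeks or between the genotypes. The test was limma's moderated test with 1 mean per group, Benjamini-Hochberg adjustment over all 19505 genes and a threshold of 0.05. It called 3.24% of all genes at 3 weeks (1.61% higher and 1.63% lower), where 2 of the 10 were called, 1 in each direction. It called 2.64% at 12 weeks (2.11% higher and 0.523% lower), where 1 of the 10 was called, as higher. Between 12 and 3 weeks it called 0.082% of all genes (0.0256% higher and 0.0564% lower), and between the genotypes 0.0256% (0.0205% higher and 0.00513% lower). At an unadjusted p under 0.05 stood 4, 3, 2 and 1 of the 10 in the 4 comparisons, against 16.1%, 15.1%, 11.4% and 6.99% of all genes. The median difference of the 10 was 0.017 at 3 weeks and 0.31 at 12 weeks, against -0.017 and -0.013 over all genes. Both comparisons used the same 0-week arrays.

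**Figure D1:**
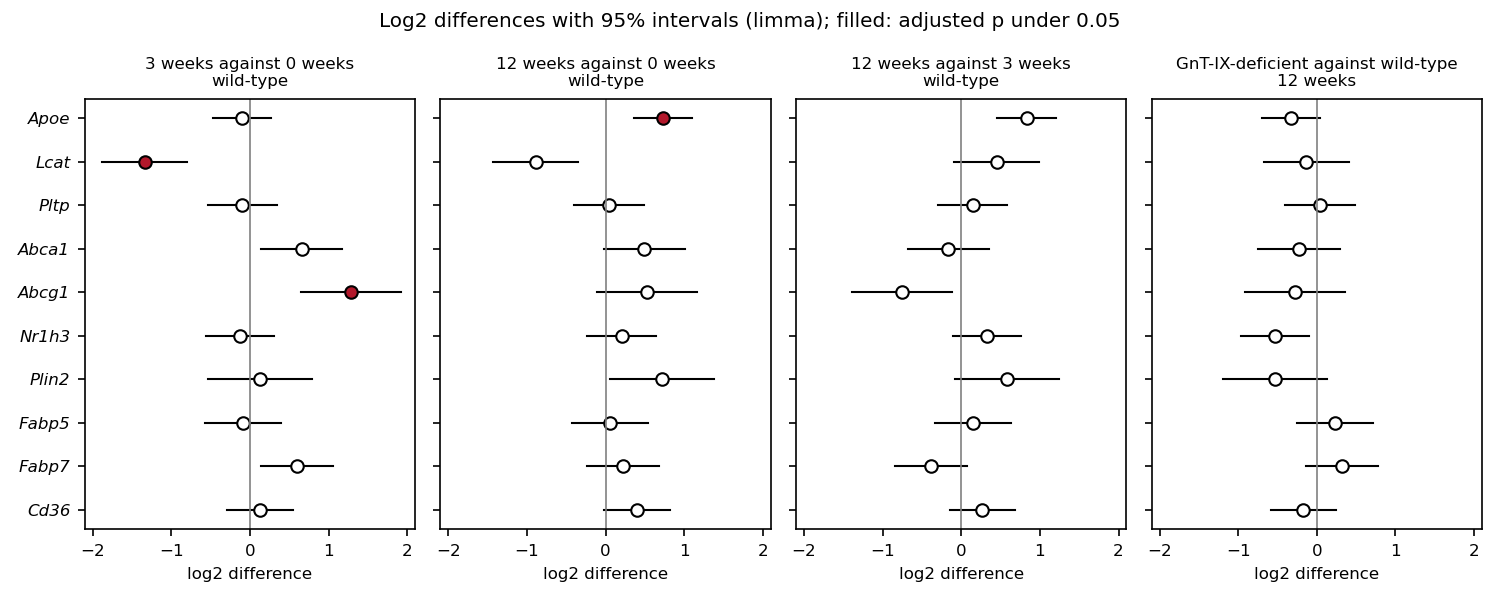
Log2 difference of each of the 10 genes (dots) with its 95% interval (lines, limma) in 4 comparisons, 1 panel each; filled dots have an adjusted p under 0.05. Lcat (-1.34) and Abcg1 (1.28) are filled at 3 weeks and Apoe (0.73) at 12 weeks, and no dot is filled in the other panels.

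Apoe, the main lipid carrier made by astrocytes and also made by microglia, was at 11.12, 11.07 and 11.11 (log2) at 0 weeks, 11.16, 11.07 and 10.77 at 3 weeks, 11.63, 12.02 and 11.84 at 12 weeks, and 11.42, 11.34 and 11.74 in GnT-IX-deficient arrays. The 0-week arrays lay within 0.05 of each other and overlapped those at 3 weeks, whereas every 12-week array, of either genotype, lay above all 6 of these. Apoe rose by 0.73 from 0 to 12 weeks in wild-type cells (SE 0.17, 95% interval 0.36 to 1.10, limma adjusted p = 0.0373). At 3 weeks the difference was -0.10 (SE 0.17, interval -0.47 to 0.27, limma adjusted p = 0.848). The direct difference of 12 from 3 weeks was 0.83 (SE 0.17, interval 0.46 to 1.20) and did not pass (limma adjusted p = 0.0838). Without replicate 1 at 3 weeks it was 0.91 and passed (adjusted p = 0.0477, range over 25 alternatives 0.0397 to 0.878). That fit called 146 of all 19505 genes, against 16 in the main fit, so the gained call was not particular to Apoe.

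Apoe and the microglial markers were both higher at 12 weeks, and a link between them was not tested. Of 14 microglial markers 12 rose at 12 weeks and none fell, with a median of 2.98, and none lay below the lower quartile of a 12-week array. At 3 weeks 9 of these markers rose, with a median of 2.26, while Apoe differed by -0.10. Replicate 1 of that group had a microglial mean of 8.95 and Apoe at 11.16. With the microglial mean of each array as a covariate the Apoe difference at 12 weeks was 0.35 (SE 0.34, adjusted p = 0.999, within a range of 0.0142 to 0.999 over 25 alternatives). In that fit 0 of all 19505 genes passed, against 514 in the main fit, so the lost call was not particular to Apoe. Mature oligodendrocyte markers went the other way, from 9.85 ± 0.19 (SD, n = 3) at 0 weeks to 9.14 ± 0.38 (SD, n = 3) at 12 weeks, where Apoe was highest. With their mean as a covariate the Apoe difference was 0.60 (SE 0.24, limma adjusted p = 0.351). It was 0.73 (adjusted p = 0.12) with the astrocyte mean and 0.68 (adjusted p = 0.0958) with the precursor mean. These 3 covariates were chosen after seeing the data, and their fits called 8, 184 and 269 of all 19505 genes. The Apoe call was also lost without any 1 of the 3 arrays at 0 weeks (limma adjusted p = 0.123, 0.142 and 0.0754). Leaving out replicate 2 or 3 at 12 weeks ended it as well (0.197 and 0.0974). The Apoe difference stayed between 0.64 and 0.83 in all fits that left out 1 array.

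**Figure D2:**
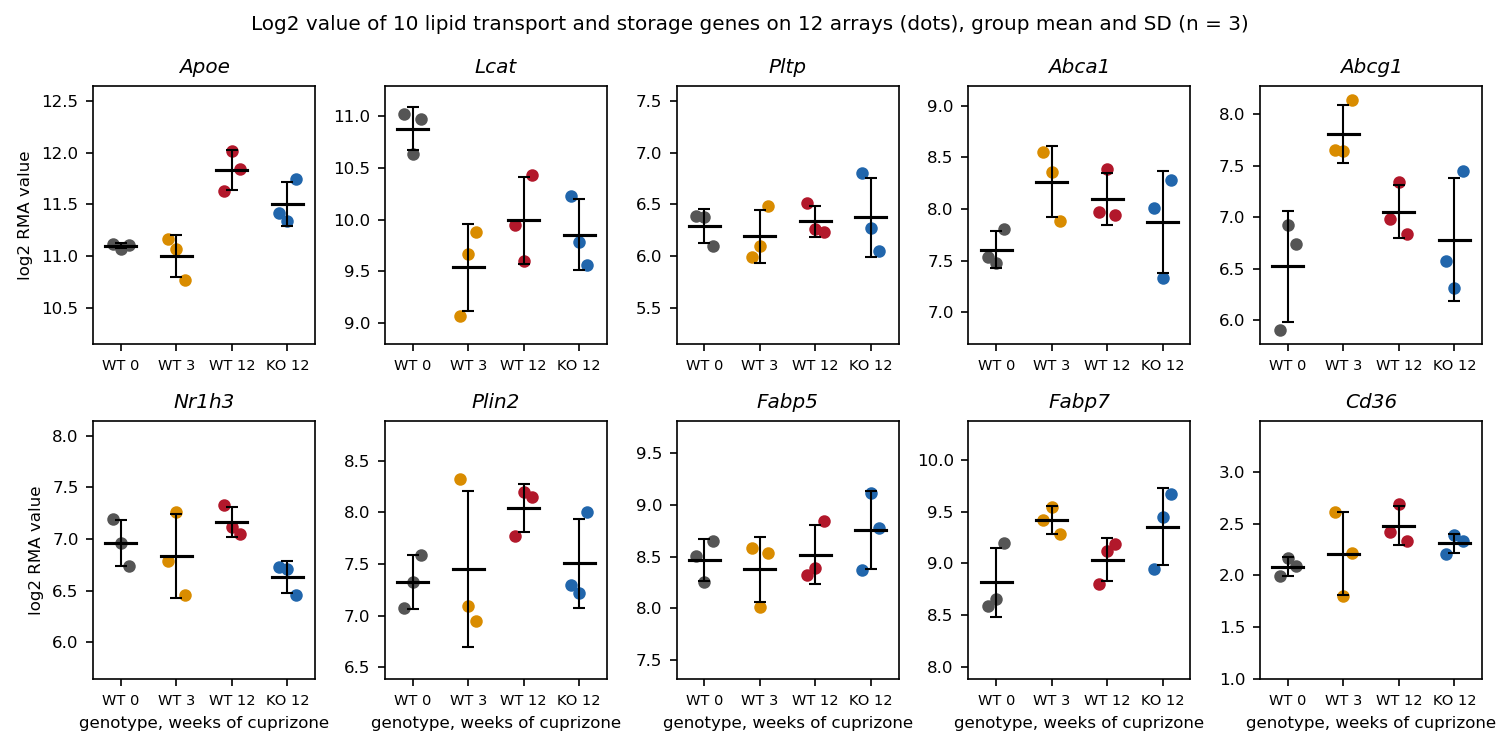
Log2 RMA value (vertical axis, 2.5 units in every panel) of the 10 genes on each array (dots), with group mean and SD (bars, n = 3); WT is wild-type and KO GnT-IX-deficient, and the number is weeks of cuprizone. Apoe is higher in both 12-week groups, Lcat is highest at 0 weeks and Abcg1 at 3 weeks.

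Lcat was at 11.02, 10.64 and 10.98 (log2) at 0 weeks, 9.07, 9.67 and 9.88 at 3 weeks, 9.95, 9.60 and 10.43 at 12 weeks, and 10.23, 9.78 and 9.56 in GnT-IX-deficient arrays. All 3 arrays at 0 weeks lay above the other 9, and the 3 later groups overlapped one another. Lcat fell by 1.34 at 3 weeks (SE 0.25, 95% interval -1.88 to -0.80, limma adjusted p = 0.00993). At 12 weeks the difference from 0 weeks was -0.89 (SE 0.25, adjusted p = 0.0832), which missed the threshold, and 12 differed from 3 weeks by 0.45 (SE 0.25, adjusted p = 0.529). Like Lcat, most astrocyte markers were lower at 3 weeks, and a link between them was not tested. Of these markers 8 of 12 fell and 1 rose, with a median of -1.07. Their mean per array went from 9.37 ± 0.14 (SD, n = 3) at 0 weeks to 8.60 ± 0.19 (SD, n = 3) at 3 weeks. With that mean in the fit, an alternative added once the data had been seen, Lcat differed by -0.59 (SE 0.37, adjusted p = 0.833, range over 25 alternatives 0.00581 to 0.833). With the microglial mean it differed by -0.64 (SE 0.33, adjusted p = 0.713). Each of these fits called 3 of all 19505 genes, against 632 in the main fit, so the loss was not particular to Lcat. The Lcat call was also lost without replicate 1 at 0 weeks (adjusted p = 0.056).

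Pltp, the phospholipid transfer protein, varied least of the 10 between groups. It was at 6.39, 6.38 and 6.10 (log2) at 0 weeks, 5.99, 6.10 and 6.48 at 3 weeks, 6.51, 6.26 and 6.23 at 12 weeks, and 6.80, 6.27 and 6.05 in GnT-IX-deficient arrays. All 4 groups overlapped, with means between 6.19 and 6.37. The differences were -0.10 (95% interval -0.54 to 0.34) at 3 weeks and 0.043 (interval -0.40 to 0.48) at 12 weeks. With 3 arrays a group, changes of any size within these intervals remain compatible with the data.

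Of the exporters, Abcg1 showed the clearer difference. It was at 5.91, 6.92 and 6.74 (log2) at 0 weeks, 7.65, 7.64 and 8.13 at 3 weeks, 6.98, 7.34 and 6.84 at 12 weeks, and 6.58, 6.31 and 7.45 in GnT-IX-deficient arrays. Every 3-week array lay above all other arrays, while the other 3 groups overlapped. Abcg1 rose by 1.28 at 3 weeks (SE 0.30, 95% interval 0.65 to 1.92, limma adjusted p = 0.0296). At 12 weeks its difference from 0 weeks was 0.53 (SE 0.30, adjusted p = 0.443) and from 3 weeks -0.75 (SE 0.30, adjusted p = 0.347).

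Abcg1 and the mean of the oligodendrocyte precursor markers were both higher at 3 weeks, and a link between them was not tested. That mean was 9.33 ± 0.11 (SD, n = 3) in these arrays against 8.66 ± 0.15 (SD, n = 3) without cuprizone. None of the 7 precursor markers measured passed the test at 3 weeks, though all 7 differences were above 0, with a median of 0.72. With the precursor mean in the fit, also added once the data had been seen, the Abcg1 difference was 0.74 (SE 0.37, adjusted p = 0.807, range over 25 alternatives 0.0131 to 0.807), and with the microglial mean it was 1.59 (SE 0.46, adjusted p = 0.342). The astrocyte mean, likewise added once the data had been seen, gave 0.98 (SE 0.52, limma adjusted p = 0.79). The precursor, microglial and astrocyte fits called 2, 3 and 3 of all 19505 genes, against 632 in the main fit. Losing the Abcg1 call there was thus not particular to that gene. The call was lost without replicate 1 or 3 at 0 weeks (adjusted p = 0.14 and 0.0551) or replicate 1 or 3 at 3 weeks (0.0665 and 0.102), and the low value of replicate 1 at 0 weeks enlarged the difference, which was 0.98 without it.

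Abca1, the exporter that loads lipid-poor apolipoproteins, was at 7.53, 7.48 and 7.81 (log2) at 0 weeks, 8.55, 8.36 and 7.88 at 3 weeks, 7.97, 8.39 and 7.94 at 12 weeks, and 8.01, 7.33 and 8.28 in GnT-IX-deficient arrays. Both wild-type cuprizone groups lay above all 0-week arrays, and the GnT-IX-deficient arrays spanned nearly the whole range. The differences were 0.66 (SE 0.24, adjusted p = 0.18) at 3 weeks and 0.49 (SE 0.24, adjusted p = 0.362) at 12 weeks, neither past the threshold. Its group means had the same order as those of Abcg1: wild-type 3 weeks, wild-type 12 weeks, GnT-IX-deficient 12 weeks, then 0 weeks. For Abca1 no neighbours in that order were apart by array, and for Abcg1 only the first pair was.

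Nr1h3, which encodes the liver X receptor alpha, was at 7.19, 6.96 and 6.74 (log2) at 0 weeks, 6.79, 7.26 and 6.46 at 3 weeks and 7.33, 7.12 and 7.05 at 12 weeks, with wild-type groups overlapping. In GnT-IX-deficient arrays it was at 6.73, 6.71 and 6.46, below all wild-type arrays at 12 weeks. It was the only one of the 10 whose arrays did not overlap between the genotypes, where 10.8% of all genes did not. The difference of -0.53 (SE 0.20, 95% interval -0.97 to -0.098) did not pass (limma adjusted p = 0.627). At 3 weeks, when Abcg1 rose, the difference of Nr1h3 was -0.13 (SE 0.20, limma adjusted p = 0.834).

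Plin2, the coat protein of lipid droplets, was at 7.07, 7.32 and 7.59 (log2) at 0 weeks, 8.32, 7.09 and 6.95 at 3 weeks, 7.77, 8.20 and 8.15 at 12 weeks, and 7.30, 7.22 and 8.00 in GnT-IX-deficient arrays. The high value at 3 weeks was that of replicate 1, the array with the highest microglial mean of its group, and the other 2 arrays of that group lay within or below the 0-week range. All wild-type arrays at 12 weeks lay above those at 0 weeks, a difference of 0.71 (SE 0.31, 95% interval 0.053 to 1.37) that did not pass (adjusted p = 0.291). With the microglial mean as a covariate the difference at 12 weeks was negative, at -0.56, and did not pass either. In that fit 0 of all 19505 genes passed, against 514 in the main fit. The Plin2 difference kept its sign in 24 of 25 alternatives, at 0.585 to 0.848 in those without a covariate. A link to the microglial transcripts was not tested.

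The fatty acid binding protein genes differed from each other. Fabp7, the brain form typical of astrocytes and their precursors, was at 8.59, 8.66 and 9.20 (log2) at 0 weeks, 9.42, 9.55 and 9.28 at 3 weeks, 8.80, 9.12 and 9.19 at 12 weeks, and 8.95, 9.45 and 9.67 in GnT-IX-deficient arrays. The 3-week arrays lay above all other wild-type arrays, with a difference from 0 weeks of 0.60 (SE 0.22, 95% interval 0.14 to 1.06) that did not pass (adjusted p = 0.166). Fabp5, the epidermal form found in many cell types, ranged from 8.01 to 9.12 over the 12 arrays, and all groups overlapped. Its differences were -0.093 (interval -0.58 to 0.39) at 3 weeks and 0.05 (interval -0.43 to 0.53) at 12 weeks.

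Cd36, a fatty acid uptake and scavenger receptor of macrophages and endothelium, lay below the lower quartile of the array on all 12 arrays, between 1.80 and 2.69. Without detection calls its level at this end of the scale cannot be told from background, and RMA compresses differences there. Its wild-type arrays at 12 weeks (2.42, 2.69 and 2.33) lay above those at 0 weeks (1.99, 2.17 and 2.09), with a difference of 0.40 (SE 0.20, adjusted p = 0.361). Counting arrays alone, 4 of the 10 genes did not overlap between 3 and 0 weeks, where 21.2% of all genes did not, and 5 of 10 between 12 and 0 weeks, where 20.8% did not. Those at 12 weeks were Apoe, Abca1, Plin2 and Cd36, all higher, and Lcat, lower. Between 12 and 3 weeks 3 of 10 did not overlap, Apoe being higher and Abcg1 and Fabp7 lower, against 15.9% of all genes.

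**Figure D3:**
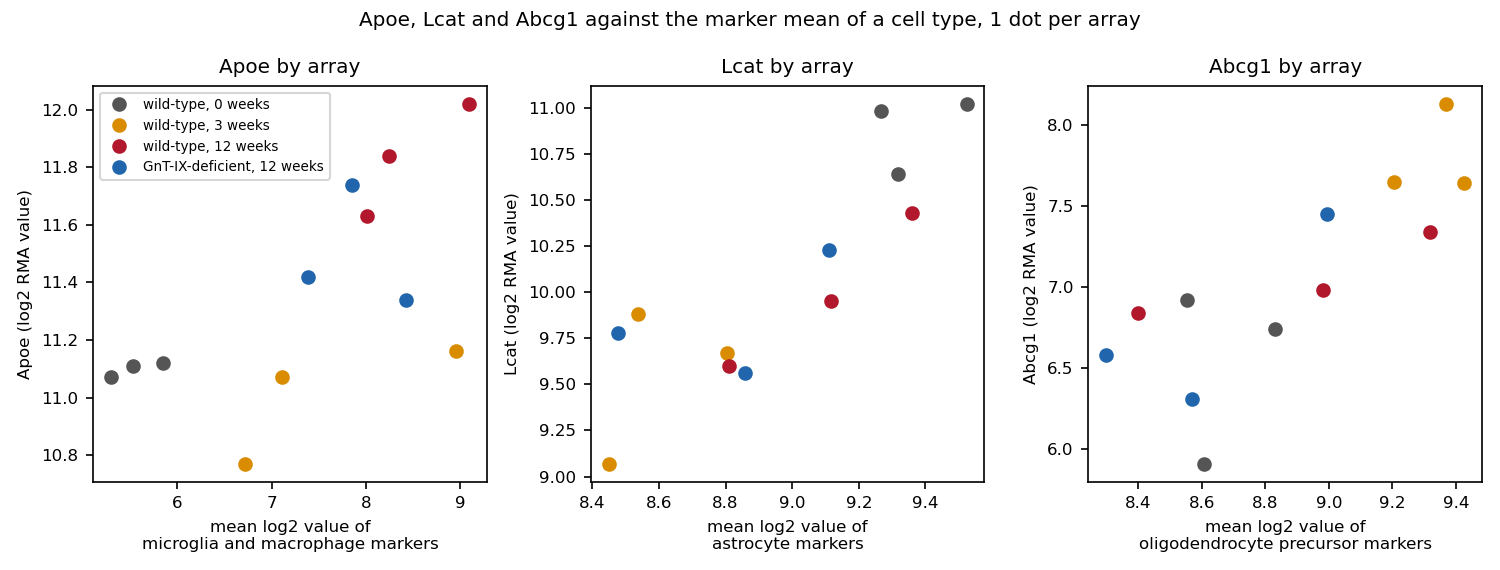
Log2 value of Apoe, Lcat and Abcg1 on each array (vertical axes) against the mean log2 value of a marker list on that array (horizontal axes); colours are the 4 groups, n = 12 arrays. The 3-week arrays span microglial means of 6.71 to 8.95 with Apoe at 10.77 to 11.16, Lcat lies highest where astrocyte markers do, and the 3-week arrays are high in both Abcg1 and precursor markers.

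Over the 12 arrays, which share 4 groups, Pearson's r was 0.64 between Apoe and the microglial mean and 0.54 between their deviations from group means. With the mature oligodendrocyte mean Apoe had r of -0.76 (deviations -0.36), the farthest from 0 of the 9 marker lists, and with the choroid plexus mean -0.0080 (deviations -0.62). For Lcat and the astrocyte mean r was 0.86, and 0.66 for the deviations, while for Lcat and the microglial mean r was -0.79 and -0.69. For Abcg1 and the precursor mean r was 0.80 and 0.55, and for Abcg1 and the pericyte and fibroblast mean 0.27 and 0.73. Among the genes themselves, leaving out Cd36 as too dim, r was highest between Apoe and Plin2 (0.71, deviations 0.74) and Abca1 and Abcg1 (0.68, deviations 0.40), and lowest between Abca1 and Lcat (-0.68, deviations -0.44). Apoe and Abca1 had r of 0.32 over the arrays but 0.84 for the deviations from group means. These values describe the arrays and carry no test.

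The genes whose values were most like those of Apoe over the 12 arrays were Atp6v0d2 (r = 0.95), Accs (0.92), 4930548G14Rik (0.90), St8sia6 (0.90) and Nudt6 (0.89). Slc39a12 (0.96) and Tmem175 (0.95) were most like Lcat, Fem1c (0.94) and Mex3b (0.94) most like Abcg1, and Clint1 (0.96) and Txnrd1 (0.94) most like Abca1. Tcirg1 (0.96) and Zmiz1 (0.93) were most like Nr1h3, Inhbb (0.91) and Folr2 (0.88) most like Plin2, and Nol8 (0.92) and Vstm2a (0.91) most like Fabp7. For Fabp5 these were Trappc1 and Ech1 (0.92 each), for Pltp Brwd3 (0.89) and N4bp3 (0.88), and for Cd36, whose values are near background, Ifngr1 (0.94) and H2bc15 (0.92). Each was picked as the highest over all named genes.

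Calls among other genes of the same pathways were few in number, in short lists chosen with earlier results known. The test called 3.24% of all genes at 3 weeks and 2.64% at 12 weeks. At 3 weeks the share was 8.33% for exporters and receptor partners, 11.8% for sterol traffic and 10% for lipid droplets. It was 11.8% for fatty acid uptake and 21.4% for PPAR and oxidation genes. At 12 weeks exporters and sterol traffic stood at 16.7% and 11.8%, and the rest of these at 0%. Of 12 measured genes of further sterol exporters and partners of the liver X receptors, 1 rose at 3 weeks and at 12 weeks 1 rose and 1 fell. The gene that rose at both times was Mylip, a liver X receptor target whose product removes lipoprotein receptors. Mylip was at 8.36, 7.72 and 8.21 (log2) at 0 weeks, 10.23, 9.76 and 8.73 at 3 weeks and 9.82, 9.69 and 8.92 at 12 weeks. The GnT-IX-deficient arrays, at 8.81, 8.54 and 8.46, lay below all wild-type arrays at 12 weeks, a difference of -0.87 (SE 0.32) that did not pass (limma adjusted p = 0.622). Against 0 weeks Mylip was higher by 1.48 (limma adjusted p = 0.0223) and 1.38 (adjusted p = 0.0344), and passed in 17 of 25 alternatives (adjusted p 0.00431 to 0.801) and in 15 of 25 (0.0095 to 0.999). With the microglial mean as a covariate these differences were 0.66 (SE 0.44) and 0.22 (SE 0.56). Abca2, an oligodendrocyte transporter of the same family as Abca1, fell by 1.53 at 12 weeks (adjusted p = 0.0389), although its arrays overlapped those at 0 weeks and the call held in 12 of 25 alternatives; mature oligodendrocyte markers had a median of -0.81 there. None of 12 measured apolipoprotein genes other than Apoe passed in any of the 4 comparisons, and their median at 12 weeks was -0.14. Clu, the other abundant apolipoprotein of astrocytes (named after its value was seen), differed by -0.17 at 12 weeks (adjusted p = 0.694). None of 10 lipoprotein receptor genes and none of 9 plasma lipid enzymes passed either (limma, Benjamini-Hochberg over all genes).

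Genes that handle sterols inside the cell went both ways, with 1 of 17 rising and 1 falling at each time. Nceh1, which frees cholesterol from its esters, rose by 0.87 at 3 weeks (limma adjusted p = 0.0242) and Cyp7b1, an oxysterol hydroxylase, fell by 0.81 (adjusted p = 0.0492). Nceh1 was at 6.59, 6.40 and 6.47 at 3 weeks against 5.94, 5.31 and 5.59 (log2) at 0 weeks. At 12 weeks Tspo, a mitochondrial protein raised in activated glia, rose by 1.31 (adjusted p = 0.0444) and Npc1, which lets cholesterol leave lysosomes, fell by 0.78 (adjusted p = 0.0331). The call of Nceh1 held in 18 of 25 alternatives, that of Npc1 in 16, that of Cyp7b1 in 12 and that of Tspo in 8. Npc1, Cyp7b1 and Nceh1 lost theirs without any 1 of the 6 arrays compared, except that Nceh1 kept it without replicate 1 at 0 weeks or replicate 2 at 3 weeks.

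Among 20 genes of lipid droplets and neutral lipid turnover 2 fell at 3 weeks and none passed at 12 weeks. They were Cideb (-1.06, adjusted p = 0.00449, limma) and the perilipin gene Plin3 (-0.97, adjusted p = 0.0181) while Plin2 differed by 0.13 (adjusted p = 0.897). Of 17 fatty acid binding and uptake genes 2 fell at 3 weeks, the acyl-CoA synthetase genes Acsbg1 (-1.21, adjusted p = 0.0112) and Acsl6 (-1.18, adjusted p = 0.0346). Of 14 genes of the PPAR receptors and fatty acid oxidation 3 fell at 3 weeks and none passed at 12 weeks. Ppara, the receptor that drives fatty acid oxidation, was at 6.85, 6.43 and 6.15 (log2) at 0 weeks and 4.84, 5.30 and 4.52 at 3 weeks, and fell by 1.59 (SE 0.29, limma adjusted p = 0.00796). Its coactivator gene Ppargc1a fell by 0.85 and Cpt1a, the gate of mitochondrial fatty acid import, by 0.77 (adjusted p = 0.0265 and 0.0324). The count of 3 went from 0 to 3 over 25 alternatives. The astrocyte markers fell in the same arrays (8 of 12, median -1.07). With their mean in the fit none of these 7 genes passed, but only 3 of all 19505 genes did, against 632 in the main fit. The difference was then -0.48 for Ppara, -0.50 for Ppargc1a, -0.31 for Cpt1a, -0.52 for Acsbg1, -0.11 for Acsl6 and -0.59 for Plin3, but -1.21 for Cideb (SE 0.30, adjusted p = 0.421), which was as large as without it. Leaving out 1 array kept the Cideb call each time, ended that of Ppara without replicate 1 at 0 weeks, and ended those of Ppargc1a, Cpt1a and Acsl6 without any 1 of the 3 arrays at 0 weeks or without replicate 1 or 3 at 3 weeks. Those of Plin3 and Acsbg1 ended without replicate 1 or 2 at 0 weeks or replicate 1 at 3 weeks.

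Sterol synthesis genes are the nearest neighbours of these pathways and served for comparison. At 3 weeks 11 of 19 fell, with a median of -0.89, against a median of 0.017 for the 10 genes followed here, and the list had been seen to fall in earlier results of these data. Astrocyte markers fell in the same arrays, and with the astrocyte, microglial or precursor mean in the fit 0 of the 11 calls were left (limma). Of all 19505 genes these fits called 3, 3 and 2, against 632 in the main fit, so the loss was not particular to this list. Of 12 scavenger receptor and phagocyte genes, Trem2, a lipid sensor of microglia, rose by 2.42 at 3 weeks (limma adjusted p = 0.0193) and Mertk, an engulfment receptor, fell by 1.39 (adjusted p = 0.02). At 12 weeks Trem2 (3.65), Gpnmb (2.61), Lgals3 (1.93) and Stab1 (1.90) rose, in the arrays in which the microglial markers were high. The calls of Trem2, Gpnmb and Lgals3 at 12 weeks held in 23 of 25 alternatives each. They were lost with the microglial or mature oligodendrocyte mean as a covariate, where 0 and 8 of all 19505 genes passed. Their lowest differences, 0.38, 0.62 and 0.26, came with a marker covariate. The Stab1 call held in 9 of 25, being lost with median centring and without any 1 of the arrays at 0 weeks. The share of the microglial transcripts in these rises was not tested.

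**Figure D4:**
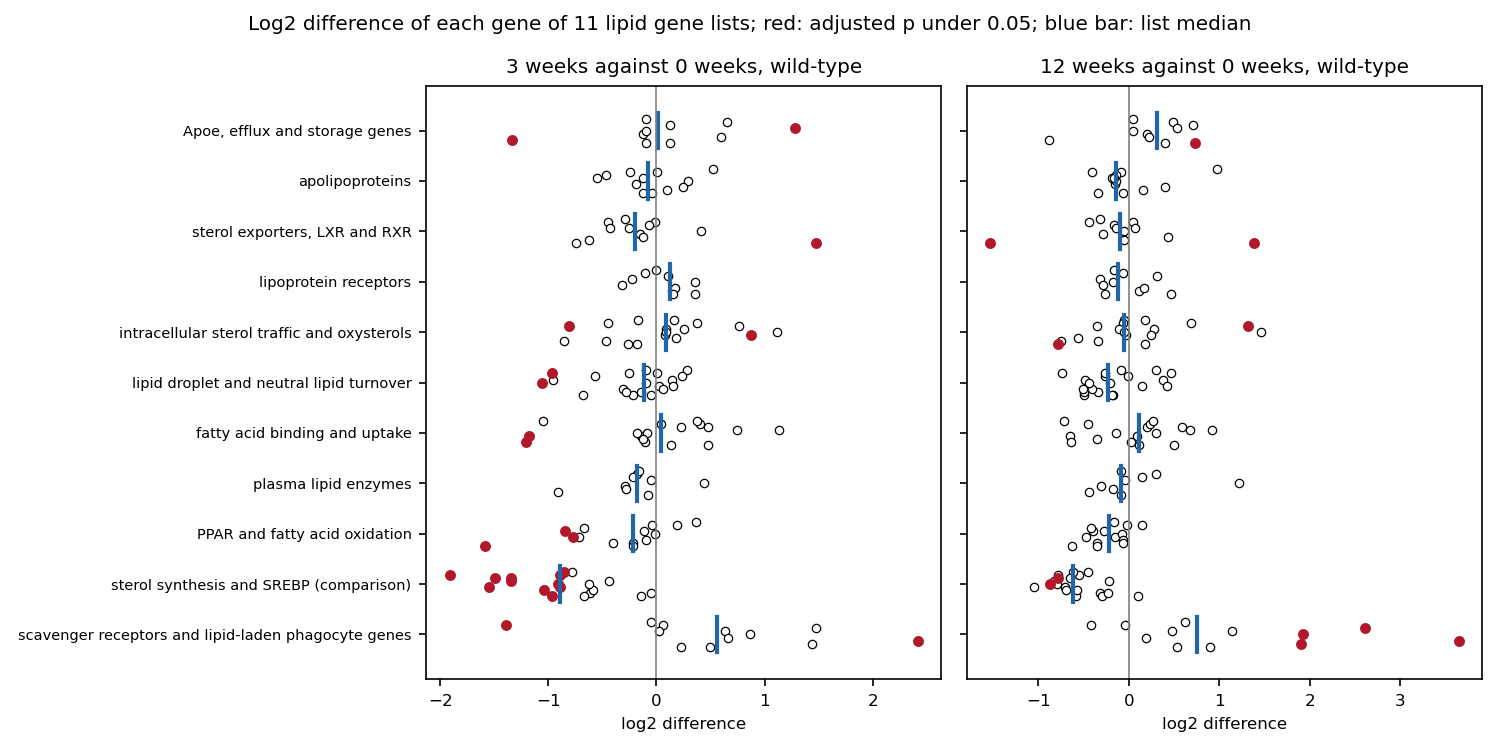
Log2 difference (horizontal axis) of each measured gene (dots) of 11 lipid gene lists (rows) at 3 and at 12 weeks against 0 weeks in wild-type cells; red dots have an adjusted p under 0.05 and blue bars are list medians. The sterol synthesis list lies lower at both times, with medians of -0.89 and -0.61, and the 10 genes followed here lie on both sides of 0.

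Between GnT-IX-deficient and wild-type cells at 12 weeks none of the 10 genes passed (limma, 1 at an unadjusted p under 0.05), 7 of 10 differences were below 0 and their median was -0.20, against -0.013 over all genes. Apoe differed by -0.33 (SE 0.17, 95% interval -0.70 to 0.041, adjusted p = 0.739), and its arrays overlapped between the genotypes. Plin2 differed by -0.53 (SE 0.31, interval -1.19 to 0.13) and Abcg1 by -0.27 (SE 0.30, interval -0.91 to 0.36). Fabp7 differed by 0.32 (SE 0.22, interval -0.14 to 0.78) and Fabp5 by 0.24 (SE 0.23, interval -0.25 to 0.72). Microglial markers were lower in the GnT-IX-deficient arrays in 14 of 14 cases, with a median of -0.55, and choroid plexus markers higher in 10 of 10, with a median of 1.81. Ependymal markers were higher in 7 of 7, with a median of 1.26, and no marker of these 3 lists passed the threshold. Over the 12 arrays the ependymal mean had r of -0.67 with Nr1h3 and 0.64 with Fabp5 (deviations -0.52 and 0.54), and its part in their values was not tested. With the microglial mean as a covariate the genotype difference of Apoe was -0.26 (SE 0.18) and that of Plin2 -0.29 (SE 0.27). With the choroid plexus mean they were -0.067 (SE 0.24) and 0.031 (SE 0.41). These intervals leave room for differences of about the size seen between 12 and 0 weeks, so the data do not show that the genotypes were alike in these genes.

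**Figure D5:**
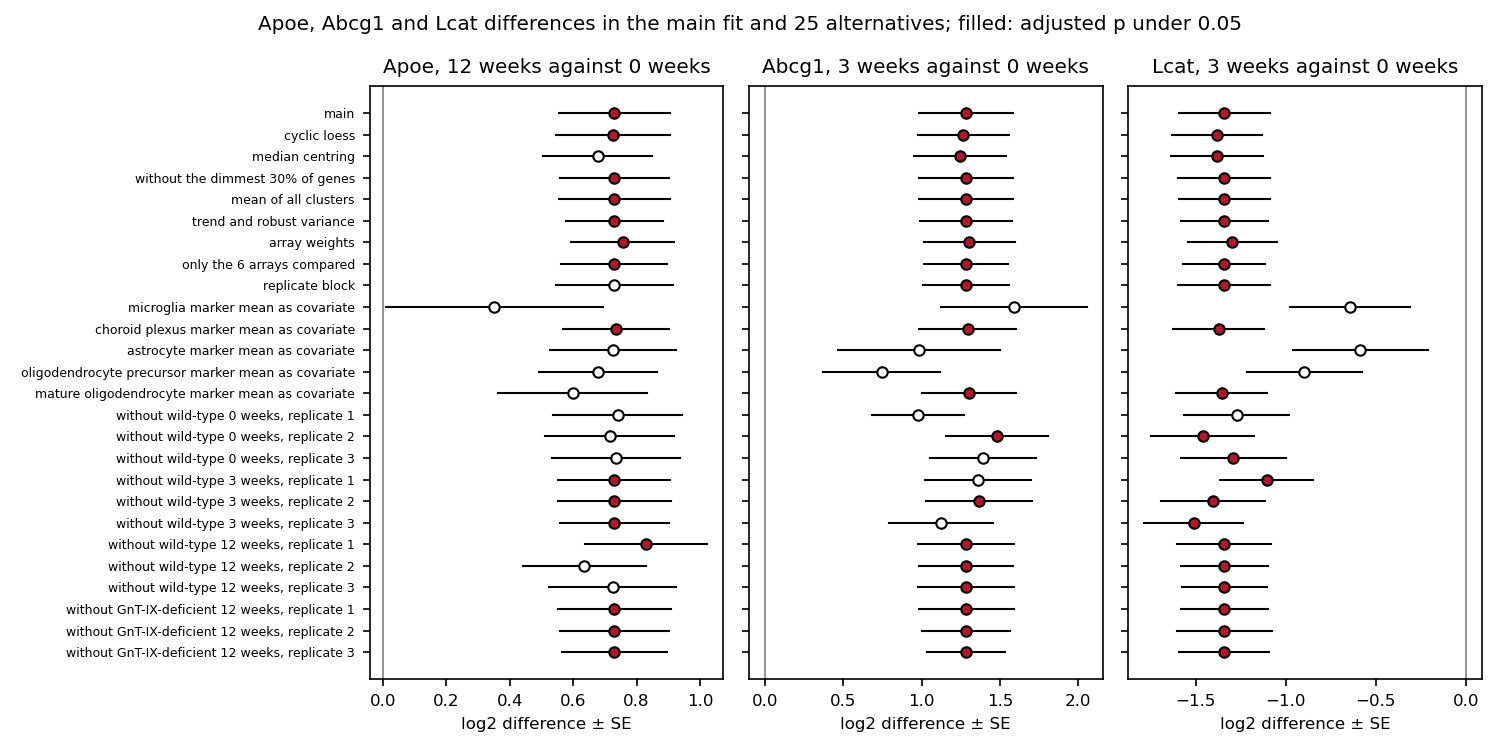
Log2 difference (dots) with its SE (lines) for Apoe at 12 weeks and for Abcg1 and Lcat at 3 weeks, each against 0 weeks in wild-type cells, in the main fit and 25 alternatives (rows); filled dots have an adjusted p under 0.05. Every dot keeps the sign of its main fit, and 14 of 25 alternatives are filled for Apoe, 18 for Abcg1 and 21 for Lcat.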

How the data were processed

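RNA came from either of a pair of extraction kits, per the labels' protocols, which do not tie kits to samples here, and was labelled for a 3′ expression array. The deposited values are log2 values that the authors made with RMA in Affymetrix Expression Console 1.4, per the submitters' processing notes. RMA gives all arrays a like distribution and compresses differences of dim genes. The table held 22206 transcript clusters on 12 arrays. Of these, 19572 had 1 gene symbol, all matched to RefSeq (GRCm38.p6) by Entrez identifier, and 2634 were unnamed here and left out, which gave 19505 genes with no filter on dim genes. Array medians over genes were 5.46 to 5.54, and arrays of a group correlated with r of 0.974 to 0.985. No signal over background was given.

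The test was limma 3.58.1 in R 4.3.3, with all 12 arrays in 1 fit, 1 mean per group, 8 residual degrees of freedom, a two-sided test and an adjusted p threshold of 0.05. It was tested on simulated data. The 10 genes, the 10 pathway lists and the 9 marker lists were chosen with earlier results of these data known. Named genes were the 10, Mgat5b, Slc1a3, genes past the threshold in a pathway list (up to 4 a comparison, smallest p first), and the genes most correlated with each of the 10 (5 for Apoe, 2 for the others); exceptions are marked. Alternatives were other normalization, centring, filters, clusters, variance models, weights, arrays, a replicate block, marker covariates (3 of them chosen after seeing the data) and leaving out each array. Replicate numbers were not taken as pairs. Between groups, 6 of 18 same-numbered and 8 of 36 other-numbered pairs of arrays had deviations correlated above 0.1. The median r was 0.048 and -0.041. Figures used matplotlib 3.10.9.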

Additional observations from a re-analysis of the deposited data

How the results depend on the processing

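At 3 against 0 weeks 2 of the 10 genes were called. The count was 0 with the microglial, astrocyte or oligodendrocyte precursor mean as a covariate. It was 2 in the other alternatives that kept all arrays of the comparison. Of all 19505 genes the microglial, astrocyte and precursor fits called 3, 3 and 2, against 632 in the main fit. The loss was thus not particular to the 10 genes. At 12 against 0 weeks 1 of the 10 was called. The count there was 0 with median centring, the replicate block, or the microglial, astrocyte, precursor or mature oligodendrocyte mean as a covariate. It was 2 with array weights, which added Lcat. Of all 19505 genes the microglial, astrocyte, precursor and mature oligodendrocyte fits called 0, 184, 269 and 8, against 514 in the main fit. Median centring, the block and array weights called 477, 442 and 919. Apoe was at 0.68 (adjusted p = 0.0512) with median centring and 0.73 (adjusted p = 0.0594) with the replicate block, in a range of 0.0142 to 0.999 over 25 alternatives. The block changed no other call of the 10 genes, and the main fit did not take replicate numbers as pairs. Between 12 and 3 weeks, where none was called, the count was 1 with trend and robust variance (Apoe, adjusted p = 0.0397, range 0.0397 to 0.878). That setting called 30 of all 19505 genes, against 16 in the main fit. The astrocyte, precursor and mature oligodendrocyte covariates were chosen after seeing the data. Leaving out 1 array gave 0 to 2, 0 to 2 and 0 to 1 of the 10 genes in these comparisons. The genotype comparison stayed at 0 in all 25 alternatives. Stab1 at 12 weeks reversed, at -0.69, with the microglial covariate; the cause was not tested. The calls of sterol synthesis genes at 3 weeks numbered 0 to 11 and those of phagocyte genes at 12 weeks 0 to 5 over 25 alternatives. With 3 arrays a group, small differences such as those of Pltp and Fabp5 could not be resolved, and signal over background was not measured, which limits Cd36 most.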
